A study of Mus musculus with 743 samples.

Results

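Transcripts of 10 genes of the transforming growth factor beta (TGF-beta) pathway were examined in single Schwann cells (SCs), the glial cells of peripheral nerves, of mouse sciatic nerve taken at postnatal day 1. The 10 genes were chosen by symbol for their place in the pathway, and all were found among the 25700 genes of the table. They are the ligands Tgfb1, Tgfb2 and Tgfb3, the receptors Tgfbr1 and Tgfbr2, the signal carrier Smad3, the inhibitor Smad7, the corepressors Ski and Skil, and Tgfb1i1. No threshold on a measured value entered the choice, but it was made with earlier results of these data known. All mice carried a Cre transgene together with ReYFP Tg/+ and βAct-DsRed Tg/+ on a C57bl/6J background, so every cell also carried the DsRed transgene. Cre was active in SCs and switched on eYFP, for which living cells were sorted 1 per well after enzymatic dissociation of the nerve at 37 °C. There was no untreated or mutant group. Cells of male and female mice were pooled on each plate, each plate with mice of its own, and the 2 plates are the replicates (n = 2).

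TGF-beta ligands are secreted in a latent form that is held in the extracellular matrix and has to be released before it can bind. The active ligand brings together the type II receptor, encoded by Tgfbr2, and the type I receptor, encoded by Tgfbr1, which phosphorylates Smad2 and Smad3, and these enter the nucleus with Smad4. Smad7 blocks the type I receptor, while Ski and SnoN, the product of Skil, bind the Smad complex and hold its target genes down. In developing nerves TGF-beta signalling is known for roles in SC proliferation, SC death and the sorting of axons, and Ski is known as a regulator of myelination by SCs.

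Of 743 wells, 621 held at least 1500 detected genes and entered the comparisons as cells, 287 on plate 1 and 334 on plate 2. Their read counts ranged from 26673 to 2291613 per cell, and 0 pairs of columns were identical. The SC markers Sox10, S100b and Erbb3 summed to 559 to 663 CPM (reads per 1000000 counted) on the plates, whereas the summed endothelial, fibroblast-like, immune and mural lists stayed at or below 56.8 CPM in each class and plate. Pdgfra, Ptprc, Tyrobp, Acta2, Rgs5 and Kdr, which define such other cells, had 0 reads in every class. Other members of the same lists were detected over the 621 cells, namely Cspg4 in 62 cells, Csf1r in 58, Pdgfrb in 53 and Dcn in 25. Of these, Pdgfrb had a read in 22.7% of promyelinating, 0% of cycling and 6.63% of other cells.

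Cells were divided into 3 classes by genes that are not among the 10. Cycling cells had at least 50 CPM of Mki67 and Top2a together, both markers of dividing cells. Promyelinating cells were not cycling and had at least 50 CPM of Ncmap, which encodes a protein of non-compact myelin, and all others are called other cells. Plates 1 and 2 gave 53 and 57 cycling, 59 and 60 promyelinating, and 175 and 217 other cells. Few cells lay near the limits, with 9 cells between 25 and 100 CPM of Mki67 and Top2a and 9 noncycling cells between 25 and 100 CPM of Ncmap. Reads were summed per class and plate, and a level in CPM is the share of such a sum multiplied by 1000000. A class can have a low CPM because fewer of its cells hold reads or because each holds fewer, so the share of cells with at least 1 read is given as well. A cell without a read is not shown to lack the transcript.

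Over all cells, the 3 ligands, Smad3 and Smad7 were sparse, and the corepressors and the 2 receptors were more often detected. On a scale of CPM per kilobase of exon, which allows genes to be compared, Ski had the highest level (9.59 ± 0.12, SD, n = 2). It was followed by Tgfb1i1 (6.39 ± 1.79), Tgfbr2 (4.34 ± 0.79), Skil (3.61 ± 1.05), Tgfbr1 (2.56 ± 0.046), Smad3 (2.05 ± 0.32), Tgfb3 (1.93 ± 1.62) and Tgfb2 (0.865 ± 1.18). Smad7 (0.0218) and Tgfb1 (0.00187) had the lowest levels. Between neighbours in this order, the values of the plates overlapped for Tgfbr2 and Skil, for Smad3 and Tgfb3, for Tgfb3 and Tgfb2, and for Tgfb2 and Smad7. At least 1 read was found in 187 cells for Skil and 185 for Ski, in 105 and 104 cells for Tgfbr1 and Tgfbr2, and in 92 cells for Tgfb1i1. Smad3 had a read in 29 cells, Tgfb3 in 28, Tgfb2 in 8, Tgfb1 in 4 and Smad7 in 3.

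**Figure D1:**
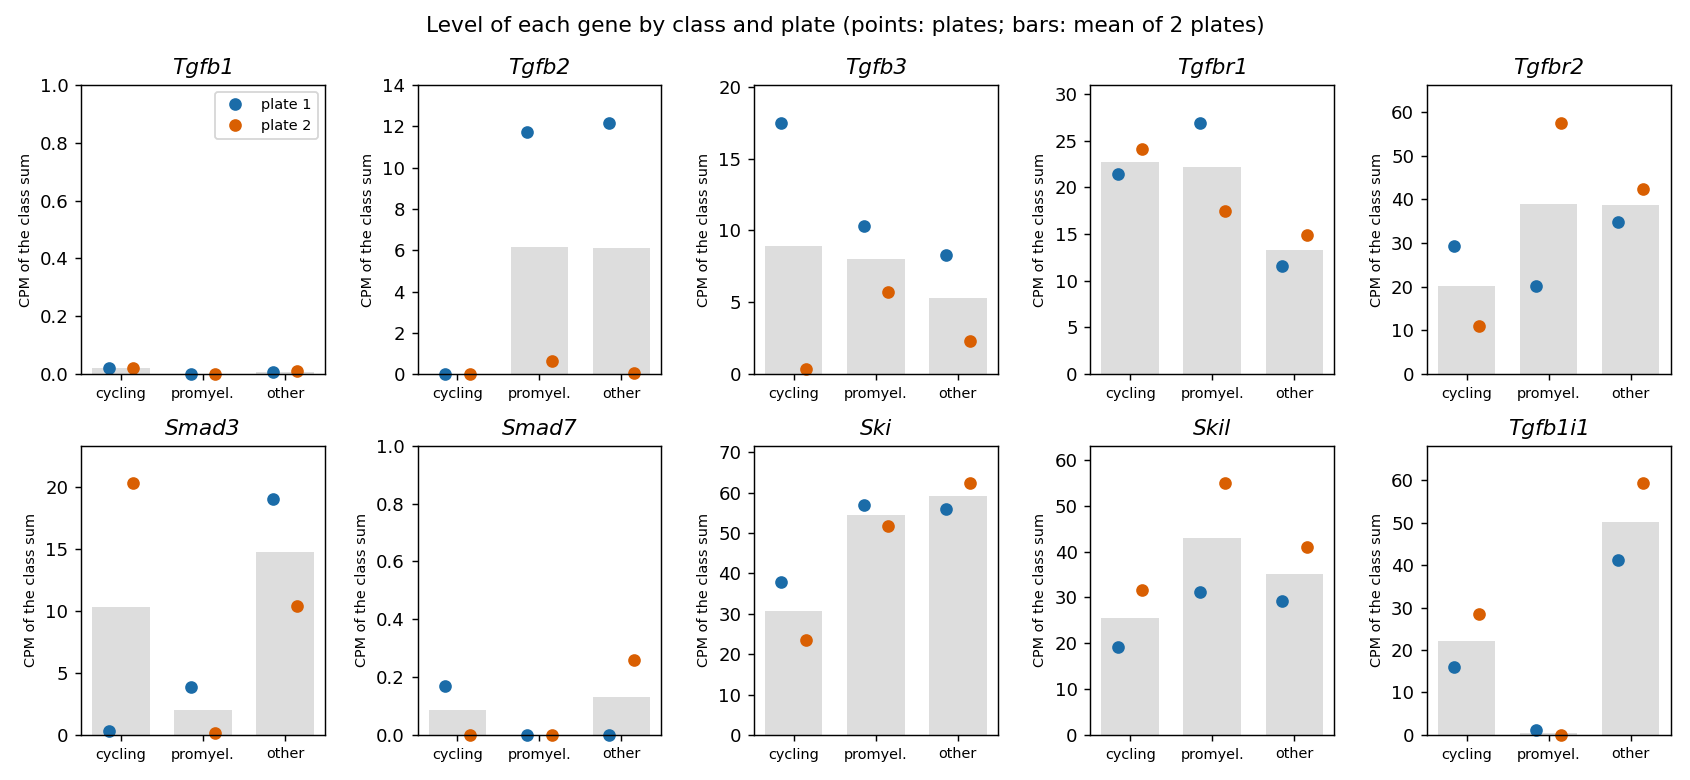
Level of each of the 10 genes in CPM of the class sum (linear y axis from 0) in cycling, promyelinating and other cells (x axis), with a point per plate and a bar for the mean of 2 plates. Tgfb1i1 stood at 1.11 and 0 CPM in promyelinating cells and above 15 CPM in each other class and plate, whereas the points of Tgfb2, Tgfb3 and Smad3 lie far apart between plates.

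Tgfb1 (ENSMUSG00000002603, chromosome 7, 25687002 to 25705077, GRCm38), the ligand that gave the family its name, was nearly undetected. A total of 5 reads in 4 of 621 cells was counted, 2 of these cells being cycling and 2 other cells. Promyelinating cells had 0 reads on both plates, and 0 of 59 and 0 of 60 cells allow a share of up to 5.08% and 5% of cells with a read. Smart-seq2 reads carry no molecular identifiers, so this limit and all intervals cover counting error only. Annotated exons of other genes do not overlap those of Tgfb1.

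Tgfb2 (ENSMUSG00000039239, chromosome 1, 186622792 to 186705989) was carried by a handful of cells. In other cells its level was 12.2 CPM on plate 1 and 0.058 on plate 2. Promyelinating cells had 11.7 and 0.61 CPM, and cycling cells 0 and 0.022 CPM. Plate 1 was above plate 2 in promyelinating and other cells, whereas cycling cells had 0 and 1 reads. The 8 positive cells held from 2.77 to 962 CPM, and 3 of them held 87.4% of all Tgfb2 reads.

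Tgfb3 (ENSMUSG00000021253, chromosome 12, 86056745 to 86079041) was detected in 9 of 110 cycling, 8 of 119 promyelinating and 11 of 392 other cells. Its level was 17.5 and 0.38 CPM in cycling cells of plates 1 and 2, 10.3 and 5.70 CPM in promyelinating cells, and 8.29 and 2.30 CPM in other cells. Plate 1 had the higher level in every class, and the ranges of the 3 classes overlapped. Exons of Tgfb2 and Tgfb3 overlap genes on the opposite strand (Gm29491 for Tgfb2, Gm37804 and Gm48008 for Tgfb3), and whether strand was used in counting is not stated.

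Tgfbr1 (ENSMUSG00000007613, chromosome 4, 47353222 to 47414931), the type I receptor, had 21.4 and 24.1 CPM in cycling cells of plates 1 and 2. Promyelinating cells had 26.9 and 17.4 CPM, and other cells 11.6 and 14.9 CPM. Both the cycling and the promyelinating values lay above the values of other cells on both plates. The log2 fold change was 0.91 (SE 0.66) for cycling against other cells and 0.83 (SE 0.66) for promyelinating against other cells, with adjusted p-values of 0.707 and 0.758 (quasi-likelihood test of edgeR, adjusted by Benjamini and Hochberg over all genes, also used below). A read was found in 24.5% and 14.04% of cycling, 20.3% and 21.7% of promyelinating, and 16% and 14.3% of other cells.

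Tgfbr2 (ENSMUSG00000032440, chromosome 9, 116084293 to 116175360), the type II receptor that binds the ligand first, had 29.3 and 10.96 CPM in cycling cells. It stood at 20.3 and 57.6 CPM in promyelinating and at 34.9 and 42.4 CPM in other cells. Cycling values lay below those of other cells on both plates, while the promyelinating values spanned them. The log2 fold change was -0.79 (SE 0.71) for cycling against other cells, with an adjusted p of 0.797. For promyelinating against other cells it was 0.088 (SE 0.71), with an adjusted p of 0.994.

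The receptors were counted together in single cells. Either Tgfbr1 or Tgfbr2 had a read in 192 of 621 cells, and both had one in 17. A read of any of the 3 ligands was found in 40 cells, of which 12 were cycling, 12 promyelinating and 16 other cells. A ligand and both receptors together were found in 2 cells, both of them promyelinating cells of plate 1. These counts depend on depth and were not set against the number that the separate shares would give.

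Smad3 (ENSMUSG00000032402, chromosome 9, 63646767 to 63757994), which carries the signal from the receptor to the genome, was sparse. It was detected in 6 of 110 cycling, 4 of 119 promyelinating and 19 of 392 other cells (5.45%, 3.36% and 4.85%). Cycling cells had 0.34 and 20.3 CPM on plates 1 and 2, promyelinating cells 3.89 and 0.15 CPM, and other cells 19.1 and 10.4 CPM. Both promyelinating values lay below both values of other cells, where 3 cells held 66.0% of the Smad3 reads on plate 1 and 99.2% on plate 2. The log2 fold change of promyelinating against other cells was -2.79 (SE 1.93), with an adjusted p of 0.686. Smad7 (ENSMUSG00000025880, chromosome 18, 75367529 to 75395935), an inhibitor that TGF-beta itself is known to induce, had 53 reads in 3 cells, 1 cycling and 2 other cells, and 0 reads in 119 promyelinating cells.

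Ski (ENSMUSG00000029050, chromosome 4, 155154075 to 155222592) had 37.8 and 23.5 CPM in cycling cells of plates 1 and 2. It stood at 57.0 and 51.8 CPM in promyelinating and at 56.0 and 62.3 CPM in other cells. Both cycling values were below all values of the other 2 classes, which overlapped each other. The log2 fold change was -0.81 (SE 0.45) for cycling against other cells, 0.77 (SE 0.45) for promyelinating against cycling cells and -0.041 (SE 0.45) for promyelinating against other cells, and the adjusted p-values were 0.597, 0.383 and 0.994. On plates 1 and 2 the median of positive cells was 94.9 and 149 CPM in promyelinating and 101 and 38.6 CPM in cycling cells. In positive other cells it was 97.8 and 97.9 CPM, so the order of the classes differed between the plates.

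Skil (ENSMUSG00000027660, chromosome 3, 31095058 to 31122577) had 19.2 and 31.7 CPM in cycling cells. Promyelinating cells had 31.3 and 54.9 CPM, and other cells 29.3 and 41.1 CPM. Plate 2 was higher than plate 1 in each class, and the ranges of the classes overlapped, while within each plate promyelinating cells had the highest and cycling cells the lowest level. The log2 fold change of promyelinating against cycling cells was 0.71 (SE 0.56) and that against other cells 0.37 (SE 0.55), with adjusted p-values of 0.513 and 0.919.

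The share of cells with a Skil read separated the classes more than its level did. A read was found in 54.2% and 43.3% of promyelinating cells on plates 1 and 2 (exact 95% intervals 40.8% to 67.3% and 30.6% to 56.8%). The share was 24.5% and 22.8% in cycling cells and 29.1% and 23.96% in other cells. Both promyelinating values thus exceeded every other value. With each cell thinned to 50000 reads, which left out 5 shallower cells, the shares were 35.6% and 36.2% in promyelinating, 13.5% and 21.1% in cycling, and 22.9% and 20% in other cells. Positive promyelinating cells held a median of 62.0 CPM of Skil, against 111 CPM in positive other cells.

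On the scale of log2(percent of thinned cells with a read + 1), the difference in Skil between promyelinating and cycling cells was 1.05 (SE 0.26, adjusted p = 0.0385, limma). This test called 12.4% of all genes in that comparison, and edgeR did not call Skil there. Between promyelinating and other cells the difference in Skil was 0.72 (SE 0.26), with an adjusted p of 0.132, where 7.67% of all genes were called. Ski, whose thinned shares were 32.2% and 32.8% in promyelinating, 21.2% and 21.1% in cycling and 23.4% and 22.8% in other cells, had adjusted p-values of 0.0926 and 0.184 in the same comparisons. Promyelinating cells also had more detected genes (medians of 3690 and 3550 on plates 1 and 2) than other cells (2775 and 2819), and the median difference of all genes on this scale was 0.28 against other cells and 0.049 against cycling cells, which had 3425 and 3477 genes. The part of this in the shares of Ski and Skil was not tested. The test on this scale was added after the reads were seen to lie in few cells.

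**Figure D2:**
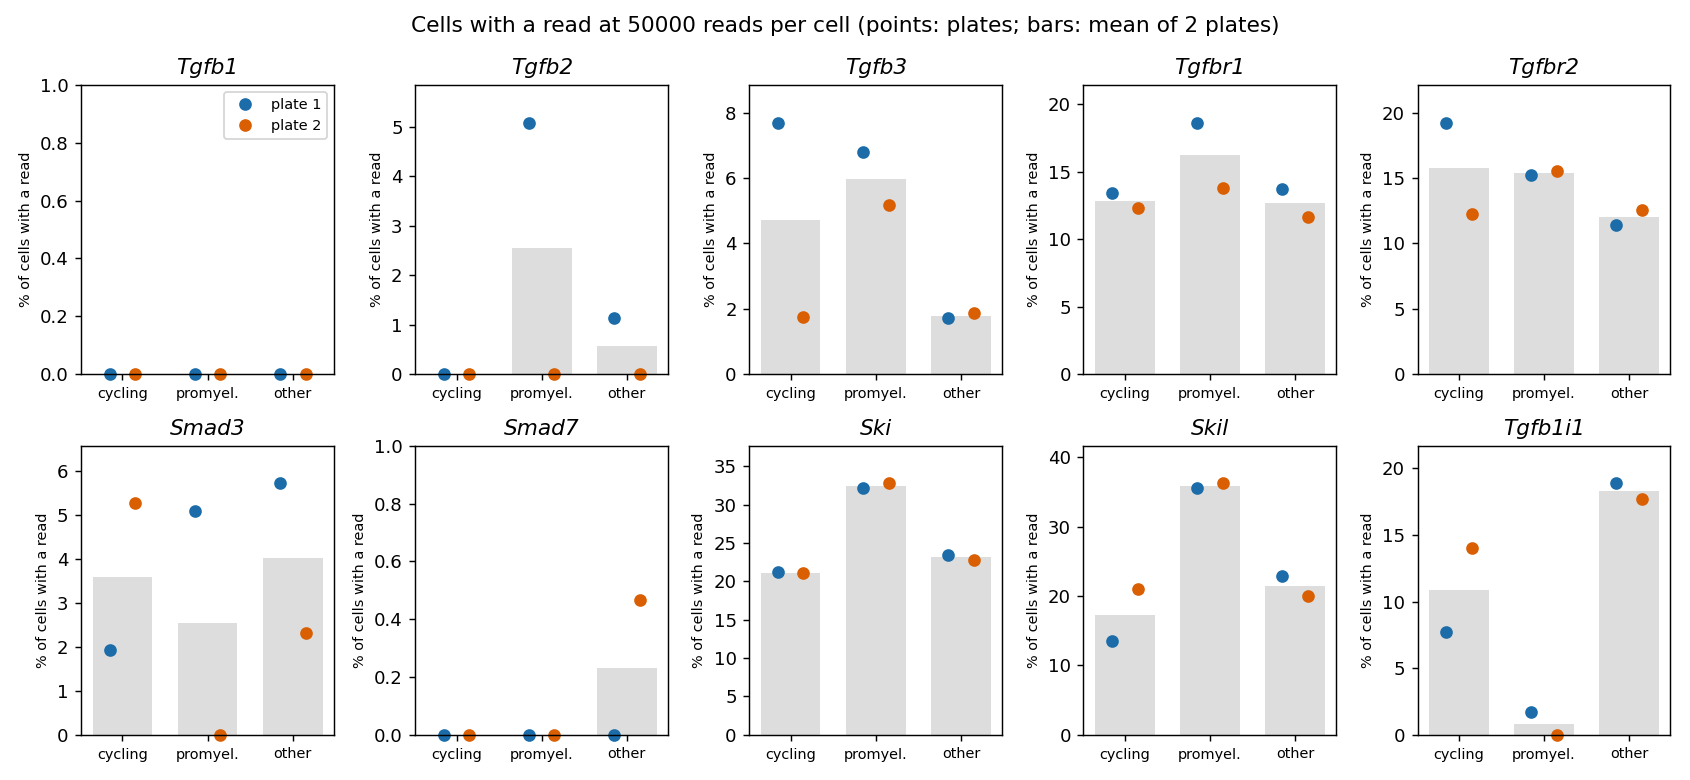
Percent of cells with at least 1 read of each gene after thinning to 50000 reads per cell (linear y axis from 0) in the 3 classes (x axis), with a point per plate and a bar for the mean of 2 plates. For Skil both promyelinating points (35.6% and 36.2%) lie above all others, and for Tgfb1i1 they lie below all others.

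Either corepressor was read in 68.9% of promyelinating cells, 46.4% of other cells and 45.5% of cycling cells over both plates. A read of both Ski and Skil was found in 22 of 119 promyelinating cells, 28 of 392 other cells and 8 of 110 cycling cells. On plate 1 this was 16 of 59 promyelinating cells and on plate 2 it was 6 of 60, so the share of cells with both differed between the plates. None of the 10 genes was read in 169 cells, and at most 5 of them were read in the same cell.

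Tgfb1i1 (ENSMUSG00000030782, chromosome 7, 128246812 to 128255699) encodes Hic-5, an adaptor protein of focal adhesions that was first isolated as a gene induced by TGF-beta. Its level was 41.3 and 59.3 CPM in other cells of plates 1 and 2 and 15.9 and 28.5 CPM in cycling cells. In promyelinating cells it was 1.11 CPM on plate 1 and 0 on plate 2. Promyelinating values were thus below those of both other classes on both plates. All 58 promyelinating reads came from 1 cell. A read was found in 34 of 175 and 41 of 217 other cells (19.4% and 18.9%), in 7 of 53 and 9 of 57 cycling cells (13.2% and 15.8%), and in 1 of 59 and 0 of 60 promyelinating cells. The exact 95% interval of the promyelinating share was 0.043% to 9.09% on plate 1 and 0% to 5.96% on plate 2, where 3 counts of 60 cells, the limit used for Tgfb1 above, would be 5%. Positive cells among the other cells held a median of 189 CPM and positive cycling cells 84.3 CPM.

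On plate 1 the level of Tgfb1i1 in promyelinating cells was 37.1-fold lower than in other cells, a ratio that rests on the reads of 1 cell. On plate 2 no fold is given, since 0 of 60 cells had a read. Over both plates edgeR gave a log2 fold change of -6.41 (SE 1.67) against other cells and -5.35 (SE 1.59) against cycling cells. These did not pass the adjustment over all genes, with an unadjusted p of 0.0046 and an adjusted p of 0.135 against other cells and an unadjusted p of 0.0093 and an adjusted p of 0.101 against cycling cells. The call depended on the test. Against other cells the adjusted p was 5.22e-05 in DESeq2, which called 7.72% of all genes. It was 0.00766 in limma on log2(mean CPM + 1), which called 2.85%, and 0.00797 with a pseudocount of 10, which called 2.66%. It was 0.00557 in edgeR on thinned cells, which called 3.73%, and 0.0163 on the shares of cells, where limma called 7.67% of genes. Against cycling cells the adjusted p was 0.000636 in DESeq2 (17.5% of genes called), 0.00861 and 0.0177 in limma with pseudocounts of 1 and 10 (10.1% and 9.54%), 0.00572 on thinned cells (10.4%) and 0.0199 on the shares (12.4%). In the other alternatives, such as the replicate block, adjusted p-values were up to 0.201 and 0.158. The ratio of plate 1 alone, which was not fitted, was -5.20 in log2 against other cells. On plate 2 alone the ratio is set by a constant added to the count of 0 reads, so it is not given.

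The level of genes listed as a dissociation response differed between the same classes. Every cell had been dissociated, so such a response cannot be told apart from expression in the intact nerve. The summed level of 8 dissociation response genes (Atf3, Egr1, Fos, Fosb, Hspa1a, Hspa1b, Ier2 and Junb) was 2205 and 2418 CPM in promyelinating cells of plates 1 and 2, 4726 and 7160 CPM in cycling cells, and 5842 and 6380 CPM in other cells. Most of the sum was Fos (1871 and 1961 CPM in promyelinating cells). The heat shock genes Hspa1a (83.6 and 94.3 against 51.6 and 63.9 CPM) and Hspa1b (24.8 and 46.1 against 15.7 and 21.1 CPM) were higher in promyelinating than in cycling cells on both plates. In other cells Hspa1a had 113 and 114 CPM, above the promyelinating values. Hspa1b had 24.6 and 26.0 CPM in other cells, below the promyelinating value of the same plate. Atf3 alone, a transcription factor of injured and stressed SCs, had 0 and 1.09 CPM in promyelinating cells, 116 and 168 CPM in cycling cells and 328 and 344 CPM in other cells. The part of this in the result for Tgfb1i1 was not tested. Of the other cells, 49 on plate 1 and 67 on plate 2 had at least 50 CPM of Atf3. Tgfb1i1 was at 69.9 and 76.6 CPM in those and at 31.3 and 52.3 CPM in the Atf3-negative other cells, with a log2 fold change of 0.89 (SE 1.19) and an adjusted p of 1.

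**Figure D3:**
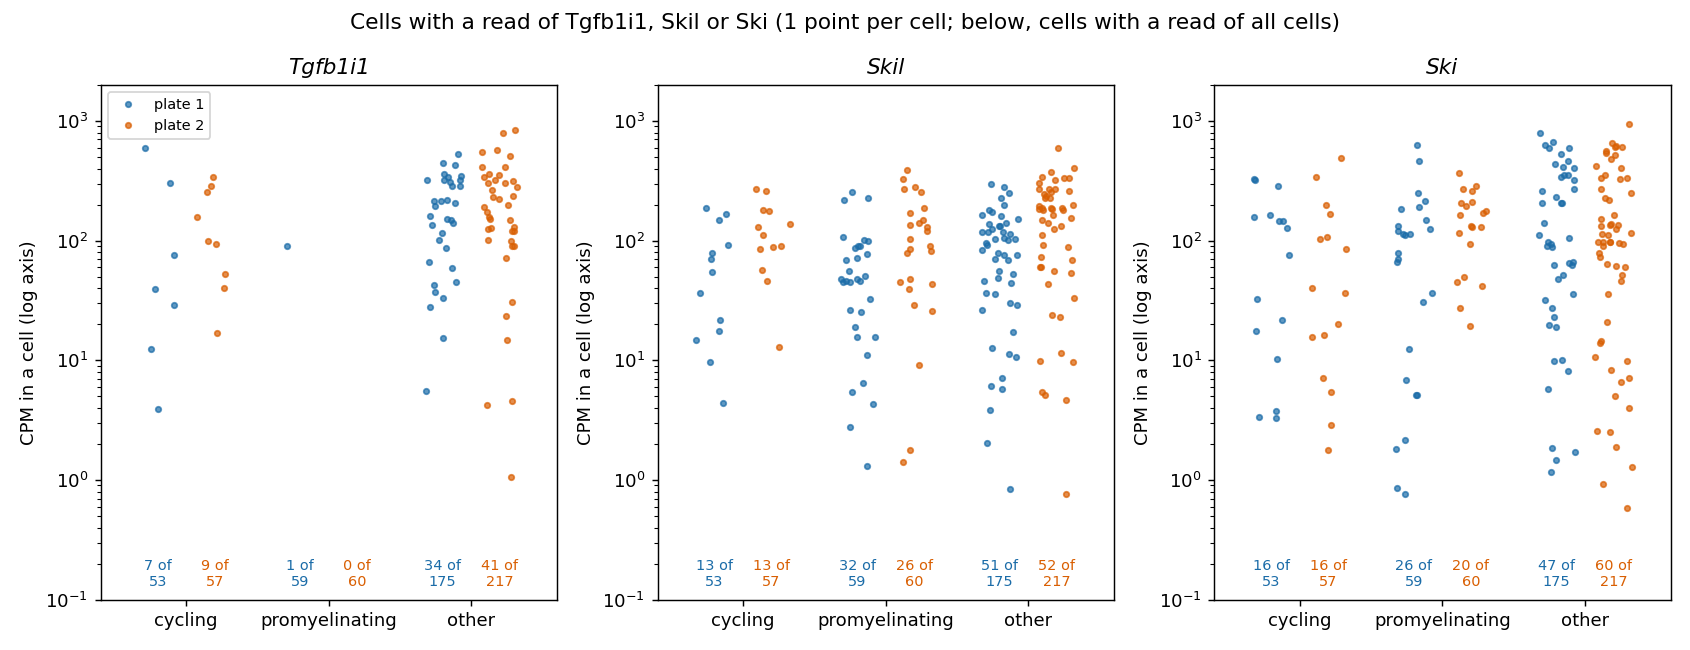
CPM of Tgfb1i1, Skil and Ski in single cells with a read (log y axis) by class (x axis) and plate (colour), with the number of cells with a read of all cells printed below. A promyelinating cell with a read of Tgfb1i1 is found once, against 75 of 392 other cells and 16 of 110 cycling cells.

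Across the whole table, 8 of the 10 genes passed the filter on low counts and entered the tests, Tgfb1 and Smad7 being too low. None of the 8 was called by edgeR at an adjusted p under 0.05 in cycling against other cells, promyelinating against other cells or promyelinating against cycling cells, where 1.01%, 1.79% and 5.95% of all 13292 genes were. At these shares a count of 0 among 8 genes is not a result about them. At an unadjusted p under 0.05 the numbers were 1 (Tgfb2), 1 (Tgfb1i1) and 2 (Tgfb2 and Tgfb1i1), against 1339, 1485 and 2668 of all genes. DESeq2 called 1, 1 and 2 of the 8. The calls of DESeq2 that were not Tgfb1i1 were Tgfb2, in cycling against other cells (adjusted p = 0.017, 6.07% of all genes called) and in promyelinating against cycling cells (adjusted p = 0.00595). They rest on the 1 read of Tgfb2 in cycling cells and the few positive cells elsewhere.

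The values of the 2 plates did not overlap between cycling and other cells for 5 of the 8 genes, 1 of them higher in cycling cells (Tgfbr1) and 4 lower (Tgfb2, Tgfbr2, Ski and Tgfb1i1). For promyelinating against other cells this held for 3, with Tgfbr1 higher and Smad3 and Tgfb1i1 lower. For promyelinating against cycling cells it held for 3, with Tgfb2 and Ski higher and Tgfb1i1 lower. Of all genes tested, 43.6%, 44.4% and 47.8% had such values, so these counts are close to those of all genes. The median log2 fold change of the 8 genes was -0.61, 0.080 and 0.31 in the 3 comparisons, beside -0.069, -0.068 and -0.018 for all genes.

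**Figure D4:**
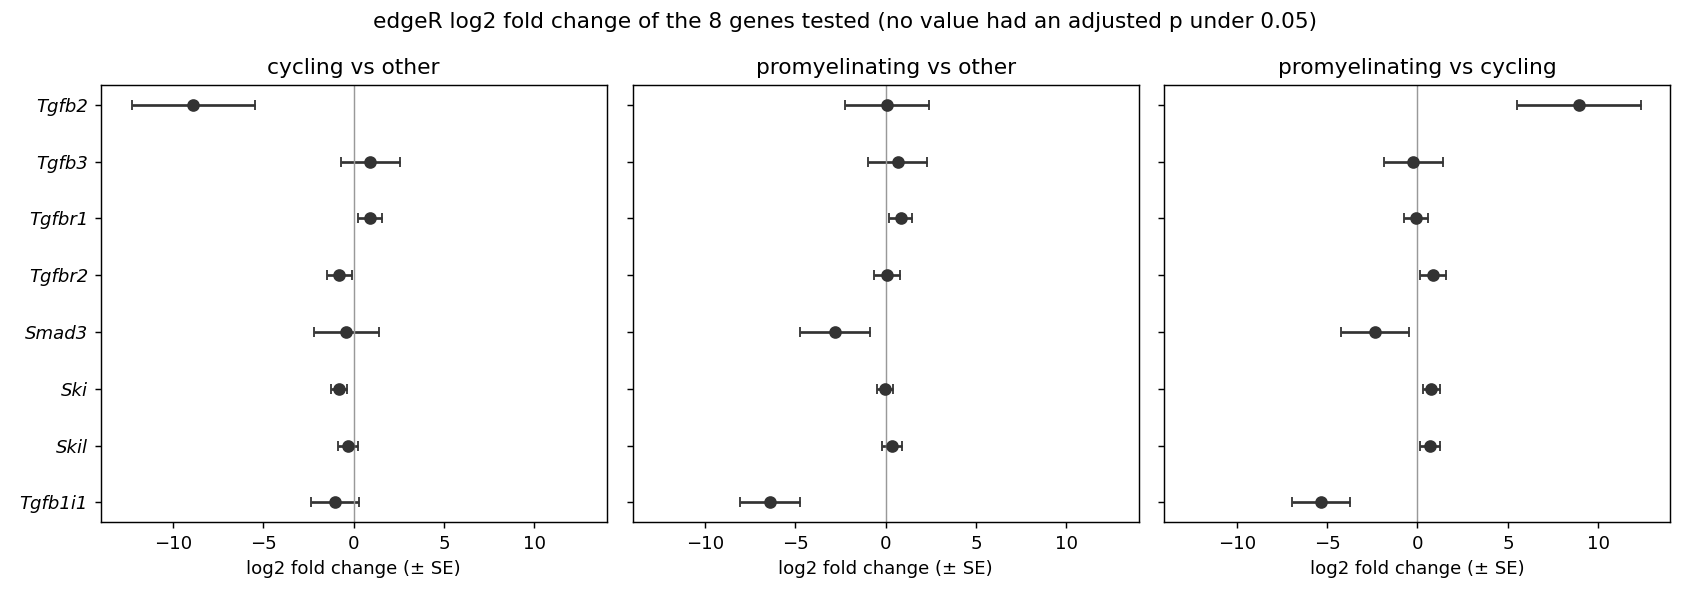
Log2 fold change (x axis) with its SE of the 8 genes tested, by edgeR on sums per class and plate, in the 3 comparisons of classes. Tgfb1i1 stands at -6.41 and -5.35 in the comparisons of promyelinating cells, and the wide bars of Tgfb2 go with 1 read in cycling cells.

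Within the other cells, Atf3-positive and Atf3-negative cells were compared in the same way. None of the 8 genes was called by edgeR, where 0.0298% of all genes were, and 2 had an unadjusted p under 0.05, as did 670 of all 13417 genes. These were Tgfb2, with 0 reads in Atf3-positive cells of both plates, and Smad3. The level of Smad3 was 0.48 and 0.80 CPM in Atf3-positive and 25.6 and 14.4 CPM in Atf3-negative cells (log2 fold change -4.89, SE 2.15, adjusted p = 0.914). The mean CPM per cell was 5.70 and 3.18 in Atf3-positive and 21.5 and 9.79 in Atf3-negative cells. The shares of cells with a Smad3 read overlapped (2.04% and 4.48% against 7.94% and 3.33%). Of the Smad3 reads in Atf3-negative cells, 3 cells held 66.4% on plate 1 and 99.9% on plate 2. DESeq2 called Tgfb2 alone (adjusted p = 0.0116), with 2.07% of all genes called.

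The surrounding pathway was described with 84 further genes, of which 70 had a read and 42 a read in at least 10% of cells. The type III receptor Tgfbr3 (277 ± 16.01 CPM, read in 80.7% of cells) and the BMP receptor Bmpr1a (42.9 ± 6.66 CPM) had the highest CPM of the further receptors. In the latency group, the integrin subunit Itgb8, which helps to release latent ligand, had 144 ± 15.96 CPM, and the latent TGF-beta binding protein Ltbp4 85.1 ± 12.98 CPM. Smad4, the common partner of the receptor-activated Smads, had 48.6 ± 2.10 CPM and Smad5, a Smad of the BMP branch, 38.8 ± 2.68 CPM. Of the ligand list, Bmp1, which is a protease that processes collagen and not itself a ligand, had 128 ± 19.4 CPM and Gdf11, a ligand of activin receptors, 42.4 ± 6.46 CPM. Fkbp1a, which binds the type I receptor and keeps it inactive, had 1152 ± 261 CPM, and the secreted glycoprotein Fstl1 491 ± 69.6 CPM. Among the targets, the collagen gene Col1a2 (3118 ± 1.07 CPM) and Ccn1 (1489 ± 413 CPM) had the highest mean CPM of the 2 plates, although on plate 1 Id2 was above Ccn1. These values are not corrected for length, so they served to select genes within a role and not to compare their abundance.

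In promyelinating against other cells, 2 of the 62 pathway genes tested passed the test, 1 in each direction (1.29% of all genes were lower and 0.497% higher). Ccn1, a matricellular protein induced by TGF-beta and by mechanical load, was at 221 and 158 CPM in promyelinating cells of plates 1 and 2 and at 1535 and 2278 CPM in other cells. It was lower in promyelinating cells, with a log2 fold change of -3.25 (SE 0.29, adjusted p = 0.0011). Cdkn1a, the cell cycle inhibitor p21, was at 1622 and 1813 CPM in promyelinating and at 361 and 431 CPM in other cells, a log2 fold change of 2.20 (SE 0.19, adjusted p = 0.000986). With the plate as a block, 4 of 62 passed (2.22% of all genes did), the added ones being the collagen genes Col1a1 (log2 fold change -0.72) and Col1a2 (-0.57), both named after their values were seen. In cycling against other cells 0 of 62 passed in edgeR (1.01% of all genes did) and 1 had an unadjusted p under 0.05 (1339 of all 13292 genes did), Cdkn1a, which the block called (log2 fold change -0.95, adjusted p = 0.0141). DESeq2 called 1 of 62 in this comparison (6.07% of all genes) and 12 of 62 in promyelinating against other cells (7.72%).

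In promyelinating against cycling cells, 7 of 62 passed, 6 lower and 1 higher in promyelinating cells (3.83% of all genes were lower and 2.12% higher). Of the 6, 3 belong to the latency and activation group. These are the integrin subunit Itgav (8.21 and 13.2 against 43.2 and 57.1 CPM, adjusted p = 0.0494), the microfibril gene Fbn1 (24.7 and 13.4 against 66.1 and 112 CPM, adjusted p = 0.0277) and Ltbp4 (29.8 and 39.4 against 99.7 and 131 CPM, adjusted p = 0.0242). Their log2 fold changes were -2.28 (SE 0.55), -2.26 (SE 0.47) and -1.78 (SE 0.36). Among the targets, Id3, an inhibitor of differentiation known mainly as a BMP target, had 1.32 and 0 CPM in promyelinating cells and 74.8 and 32.6 CPM in cycling cells (log2 fold change -6.40, SE 1.55, adjusted p = 0.0496). This rests on few cells, as Id3 was read in 18 of 110 cycling and 1 of 119 promyelinating cells. Ccn1 was lower as well (1129 and 1751 CPM in cycling cells, log2 fold change -2.97, SE 0.29, adjusted p = 0.000731), as was Col1a1, which lies outside the naming rule. Cdkn1a was higher, with 165 and 210 CPM in cycling cells and a log2 fold change of 3.15 (SE 0.20, adjusted p = 0.00010). Exons of Itgav, Fbn1, Cdkn1a, Bmpr1a and Junb overlap genes on the opposite strand, and those of Tgfbr3 and Smad5 a gene on the same strand, so their counts are uncertain to that extent.

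By role, the median log2 fold change of promyelinating against cycling cells was -1.78 for the 9 latency genes tested, -1.07 for the 13 targets, 0.63 for the 9 receptors, -0.37 for the 5 Smads, 0.12 for the 21 inhibitors and -0.026 for the 5 ligands. Against other cells the medians were -1.34 for latency genes and -1.02 for targets, and between -0.49 and 0.058 for the 4 remaining roles. The median of all genes was -0.018 against cycling and -0.068 against other cells. Of the 13 targets, 1 (Cdkn1a) had a log2 fold change above 0 against other cells, and the share of all genes above 0 was not counted. Several targets had few reads. Id3, Fn1, Cdkn2b and Tgfbi each had a read in 1 of 119 promyelinating cells and Id1 in 5, so their fold changes rest on few cells. The target Junb also stands on the list of dissociation response genes, whose sum was lowest in promyelinating cells as given above. The part of a response to dissociation in the values of Junb, Ccn1 and the other targets was not tested. In Atf3-positive against Atf3-negative other cells, 0 of 63 pathway genes were called by edgeR (0.0298% of all genes), 8 had an unadjusted p under 0.05 (670 of all 13417 genes) and DESeq2 called 1 (2.07% of all genes).

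**Figure D5:**
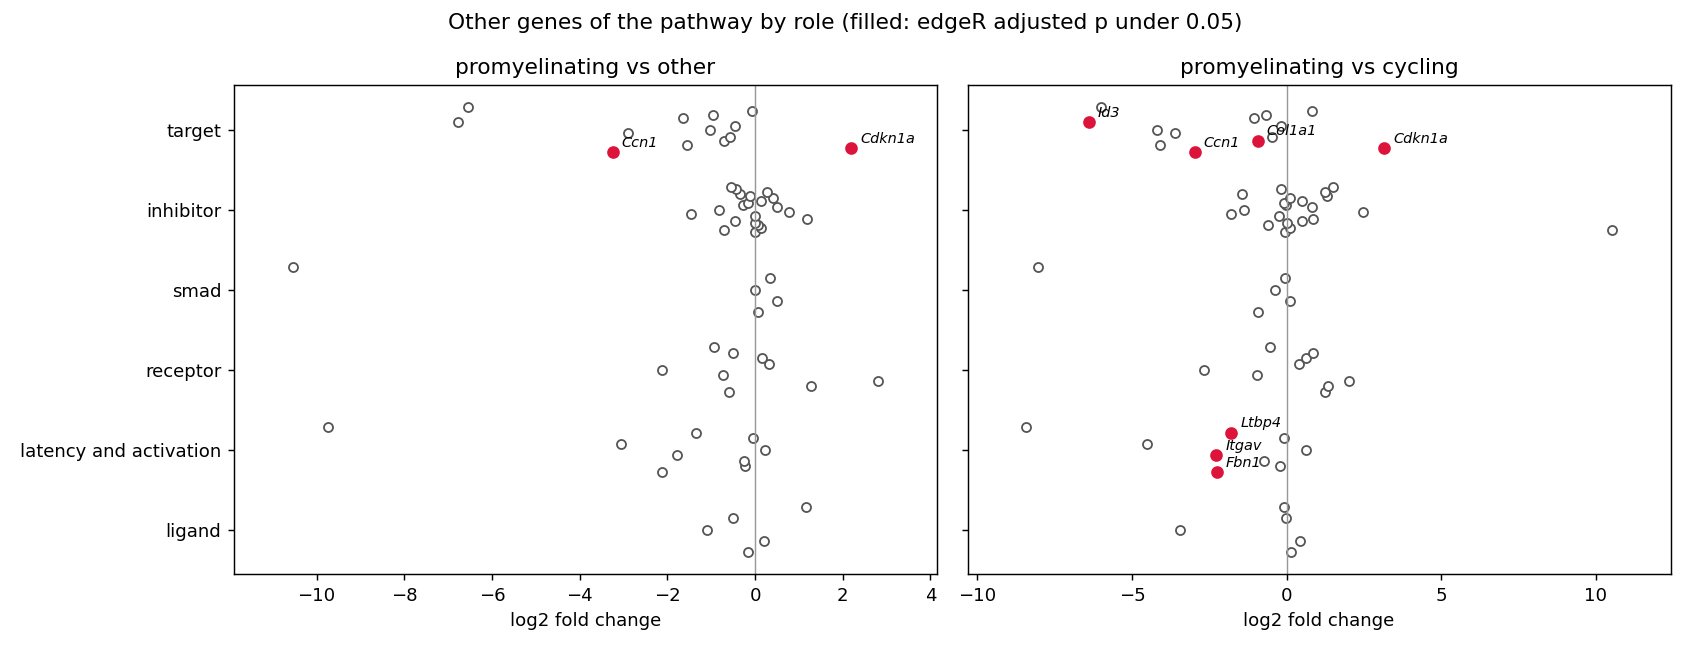
Log2 fold change (x axis) of the 62 tested genes of the pathway by role (y axis), for promyelinating against other cells (left) and against cycling cells (right). Filled and named points passed the test, 2 on the left and 7 on the right, and the Cdkn1a point lies above 0 in both panels.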

How the data were processed

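The deposited values are raw read counts per gene and well, made by the authors from Smart-seq2 libraries. The submitters' processing notes name bcl2fastq, STAR 2.6.1c, featureCounts and the build GRCm38.p5. Whether reads were counted by strand is not given in the sources used here. Per-sample columns not used numbered 0. Symbols and coordinates came from GENCODE M21 (GRCm38), which gave 25664 of 25700 IDs a symbol.

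CPM were computed per well to assign classes, and counts were then summed per class and plate. Sums held 45073128 to 172878954 reads, so that 3 reads, the limit used, were 0.0174 to 0.0666 CPM. Tests used edgeR 4.0.16 with TMM scaling, its filterByExpr, a robust quasi-likelihood fit with no plate term and Benjamini-Hochberg adjustment over all genes tested (threshold 0.05). SEs were derived from the fold change and the F statistic. Cells were never replicates. With 2 plates, p-values rest on few degrees of freedom. The plates came from separate mice, so sums of a plate share their animals. As a check of the pairing, deviations between plates were correlated for each pair of classes across 8190 genes (r = 0.0745, 0.0728 and 0.0645), and the plate as a replicate block was an alternative.

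Other alternatives were DESeq2 1.42.0, limma 3.58.1 on log2(mean CPM per cell + 1 or + 10), no TMM scaling, no filter on low counts, other minimums of genes, other limits of the classes, cells thinned to 50000 reads and each plate alone, which gives a ratio with no test. The steps were tested on simulated data, where DESeq2 called more unchanged genes than edgeR. No doublet caller was run.

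The members, the 84 pathway genes and the marker lists were chosen with earlier results of these data known. Pathway genes named are the 2 of highest CPM per role and, per comparison and direction, at most 5 of largest fold change that passed the test in the same direction on both plates with at least 10 CPM in the higher class.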

Additional observations from a re-analysis of the deposited data

Results flagged for a closer look

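The 122 wells with fewer than 1500 detected genes did not enter the main comparisons. Those with at least 1000 genes entered only the alternative with that minimum. In the 122 wells, 5 of the 10 genes had more than 3 reads, the limit set by 0 counts (0.143 CPM of the summed reads of these wells). The level was 120.2 CPM for Skil, from 2519 reads in 8 wells, and 31.8 CPM for Ski, from 666 reads in 6 wells. For Tgfbr2 it was 32.1 CPM and for Tgfbr1 15.7 CPM, each from 2 wells, and for Smad3 3.10 CPM from 1 well. Tgfb1, Tgfb2 and Smad7 had 0 reads there, Tgfb3 had 2 and Tgfb1i1 had 1.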

How the results depend on the processing

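Tgfb1 and Smad7 have no value in the main test. They were tested with no filter on low counts, as was Smad7 in the comparisons of classes with cells of at least 2500 genes, and were called in neither setting. Over 32 pairs of a gene and a comparison and 14 settings each, 378 values kept their direction and their side of the threshold, or moved by less than 1 SE where a plate was left out. A further 14 passed the threshold, 19 moved by 1 SE or more with a plate left out, and 37 changed sign in a test. Of the ratios of 1 plate alone, 12 also had the opposite sign, among them 6 of the 19. No main value with a changed sign had been called, and the cause was not tested.

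The number of the 10 genes called was 0 in the main edgeR test, which took in 8 of them. Under DESeq2 it became 1 in cycling against other cells (6.07% of all genes called) and in promyelinating against other cells (7.72%). It also became 1 in the Atf3 comparison (2.07%), and 2 in promyelinating against cycling cells (17.5%). In both promyelinating comparisons it was 1 with cells thinned to 50000 reads (3.73% of all genes against other and 10.4% against cycling cells). It was also 1 in limma with a pseudocount of 1 (2.85% and 10.1%) or 10 (2.66% and 9.54%). On the shares of cells it was 1 against other (7.67%) and 2 against cycling cells (12.4%). Of the pathway genes, 2 were called in promyelinating against other cells (1.79% of all genes). This became 12 under DESeq2, 7 in thinned cells, 8 and 7 in limma with pseudocounts of 1 and 10, and 6 on the shares. The shares of all genes called in these settings are those just given. It was 6 with no filter (521 of all 15940 genes) and 4 with the replicate block (2.22%). In promyelinating against cycling cells 7 (5.95% of all genes) became 12 under DESeq2 (17.5%) and 4 with no TMM scaling (777 of all 13292 genes). In cycling against other cells 0 (1.01% of all genes) became 1 under DESeq2 (6.07%). It also became 1 with thinning (258 of all 11231 genes) and in limma (232 and 285 of 13292 for pseudocounts of 1 and 10). The same held with no filter (317 of 15940) and with the replicate block (156 of 13292). In the Atf3 comparison 0 (0.0298%) became 1 under DESeq2 (2.07%) and 2 with no filter (102 of 15940). The block changed no other call. Over all genes, the settings gave 118 to 807 calls (134 in the main test) in cycling against other, 222 to 1026 (238) in promyelinating against other, 740 to 2322 (791) in promyelinating against cycling and 0 to 278 (4) in the Atf3 comparison, with the highest number under DESeq2 each time. Without TMM scaling, the median log2 fold change of all genes in cycling against other cells went from -0.069 to -0.20.

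The log2 fold changes that changed sign in a test were as follows. In promyelinating against other cells, Ski was 0.0060 under DESeq2, 0.15 in cells of at least 2500 genes, 0.11 in thinned cells, 0.017 with a class limit of 100 CPM and 0.47 on the shares. Tgfbr1 was -0.066 in thinned cells. Tgfbr2 was -0.23 in cells of at least 2500 genes, -0.20 in thinned cells and -0.44 and -0.32 in limma with pseudocounts of 1 and 10. In promyelinating against cycling cells, Tgfb3 was 0.20 in cells of at least 2500 genes, 0.67 and 0.031 in limma with pseudocounts of 1 and 10, 0.50 on the shares and 1.08 with the replicate block. Tgfbr1 was 1.75 in cells of at least 2500 genes, 0.0012 in limma with a pseudocount of 10 and 0.30 on the shares, where Tgfbr2 was -0.00055. In cycling against other cells of at least 2500 genes, Skil was 0.037, Smad3 0.044 and Tgfbr1 -0.74. Tgfb3 was -0.030 in limma with a pseudocount of 1, and Tgfbr2 was 0.34 on the shares. In the Atf3 comparison, Skil was 0.0022 under DESeq2, 0.010 with a class limit of 25 CPM, 0.089 and 0.065 in limma with pseudocounts of 1 and 10 and 0.00098 with the replicate block. Tgfbr1 was 0.024 under DESeq2, 0.30 in cells of at least 1000 genes, 0.50 of at least 2500, 0.27 in thinned cells and 0.38 and 0.24 in limma with pseudocounts of 1 and 10. Tgfbr2 was -0.041 in thinned cells and -0.38 on the shares.

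Of the ratios of plate 2 alone, Tgfb3 was -2.57 in cycling against other and 3.88 in promyelinating against cycling cells. On plate 1 alone, Smad3 was 3.49 and Tgfbr2 -0.53 in promyelinating against cycling cells, Tgfbr2 was -0.78 in promyelinating against other cells and Ski was -0.18 in the Atf3 comparison. The remaining 6 moved by less than 1 SE.

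After thinning, 24 of 30 mean levels of the 10 genes in a class stayed within 1 SD of the plates. With 3 reads as the limit for a count of 0, a class sum without a read allows a level of up to 0.0174 to 0.0666 CPM, depending on the sum.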
